A study of Mus musculus with 100 samples.

Results

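The genes of the tumor necrosis factor (TNF) ligand and receptor superfamilies were followed through chromatin immunoprecipitation sequencing (ChIP-seq) of mouse macrophages and osteoclast precursors. The regions were those of the deposited tables whose nearest gene was named Tnfsf or Tnfrsf (Tnfrsf11a left out) or was Tnf, Lta, Ltb, Ltbr, Fas, Cd27 or Ngfr. This took 1784 of 610301 regions over 15 tables, at 38 genes, of which 15 encode ligands and 23 encode receptors. The tables held between 51 and 205 of these regions each. A region was given to a gene because its start site was the nearest, so a region can lie inside or act on another gene.

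Bone marrow-derived macrophages (BMDMs) of C57BL/6 mice aged 8 to 12 weeks received vehicle (Veh) or the TLR4 agonist Kdo2 lipid A (KLA) for 6 h. Chromatin was precipitated with antibodies to NCoR and HDAC3 (a corepressor and the histone deacetylase it carries), the p65 subunit of NF-κB, Fosl2 (an AP-1 subunit), PU.1 (a macrophage lineage factor), PGC1β (a coactivator), ERK1 (a kinase) and p300 (an acetyltransferase), all in wild-type (WT) cells. Acetylated histone H3 lysine 27 (H3K27ac), a mark of active regulatory regions, was measured in 3 further designs. The first compared NCoR flox/flox cells, named WT in the labels, with NCoR flox/flox LysMCre cells (NKO), each with Veh or KLA. The second compared Pgc1b flox/flox with Pgc1b flox/flox LysMCre cells, each with Veh or KLA. The third compared WT cells given DMSO Veh, DMSO KLA or KLA with RGFP966, an HDAC3 inhibitor. BMDMs were serum-starved before KLA, and the inhibitors were added with the starvation medium. LysM-Cre deletes in myeloid cells, and H3K27ac tags do not show whether the deletion was complete. PGC1β and NCoR were also measured in KLA-treated cells given an ERK inhibitor (ERKi), PGC1β with DMSO Veh and DMSO KLA controls and NCoR beside the Veh and KLA libraries of its first table. ERK1 and p300 were measured in WT bone marrow cells at day 0 and after 4 days of osteoclast differentiation with RANKL. The names of the ERK1 day 0 libraries and of ERK1 day 4 replicate 1 carry NCoRWT. Those of ERK1 day 4 replicate 2 and of the p300 libraries do not. Each group had 2 libraries.

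TNF superfamily ligands are mostly trimeric membrane proteins that are shed or act by contact, and they signal through receptors that recruit TRAF adaptors or, where the receptor has a death domain, FADD and caspase-8. In macrophages TNF is the classical early product of TLR4 signaling, and its promoter and neighboring enhancers are established NF-κB targets. Signals between macrophages and lymphocytes also run through this family, with TNFSF4 (OX40 ligand), TNFSF8 (CD30 ligand), TNFSF9 (4-1BB ligand), TNFSF15 (TL1A) and TNFSF18 (GITR ligand) as costimulators.

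The regions on which the results turn are printed here as the 200 bases around the region centre in mm10, plus strand, so that the letters can be read beside the values. Letters in capitals mark matches, on either strand, to NF-κB (by its degenerate decamer), AP-1 (TGANTCA), PU.1 (GAGGAAGT) or IRF (GAAANNGAA). In the same 200 base window the NF-κB letters were held by 9.85% of all p65 regions and 12.0% of the superfamily ones, and the AP-1 letters by 21.7% and 24.1%. The PU.1 letters were held by 18.1% of all PU.1 regions and 15.6% of the superfamily ones. The first 5 gained tags with KLA and the last 2 lost them. The Fas window lies in the Fas promoter at chr19:34290341-34290540 and holds 1 AP-1 match. The Tnf window, at the promoter edge, covers chr17:35202539-35202738 and holds none of the 4 motifs. Intergenic windows are shown for Tnfrsf14 (chr4:154942790-154942989) and Tnfrsf1b (chr4:145261476-145261675), each with 1 NF-κB match, and for Tnfsf8 (chr4:63935442-63935641), with 2 overlapping NF-κB matches. The Tnfsf8 window in intron 2 of 3 (chr4:63847376-63847575) holds 1 PU.1 match, and the Tnfrsf21 window in intron 3 of 5 (chr17:43040683-43040882) holds none. Distances after gene names are in kb from the start site, negative upstream.
Fas -0.2 kb: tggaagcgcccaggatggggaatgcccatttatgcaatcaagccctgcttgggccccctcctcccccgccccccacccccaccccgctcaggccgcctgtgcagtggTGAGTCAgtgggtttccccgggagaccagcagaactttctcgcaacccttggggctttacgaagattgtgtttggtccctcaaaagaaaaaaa
Tnf -0.6 kb: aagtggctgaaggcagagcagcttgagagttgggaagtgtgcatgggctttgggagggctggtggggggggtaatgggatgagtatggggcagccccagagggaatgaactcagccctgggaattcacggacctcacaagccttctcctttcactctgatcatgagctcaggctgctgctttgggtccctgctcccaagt
Tnfrsf14 -14.8 kb: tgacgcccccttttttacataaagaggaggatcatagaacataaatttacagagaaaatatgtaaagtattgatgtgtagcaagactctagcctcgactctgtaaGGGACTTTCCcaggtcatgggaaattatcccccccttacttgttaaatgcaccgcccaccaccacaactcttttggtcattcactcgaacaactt
Tnfrsf1b -14.7 kb: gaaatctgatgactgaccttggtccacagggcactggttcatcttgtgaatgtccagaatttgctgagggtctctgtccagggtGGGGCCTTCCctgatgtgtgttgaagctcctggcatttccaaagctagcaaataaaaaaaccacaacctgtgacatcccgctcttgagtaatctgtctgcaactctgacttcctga
Tnfsf8 -74.3 kb: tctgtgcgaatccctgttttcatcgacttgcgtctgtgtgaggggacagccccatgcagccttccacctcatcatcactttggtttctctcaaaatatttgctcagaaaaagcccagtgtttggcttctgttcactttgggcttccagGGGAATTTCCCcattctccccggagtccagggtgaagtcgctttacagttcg
Tnfsf8 13.8 kb: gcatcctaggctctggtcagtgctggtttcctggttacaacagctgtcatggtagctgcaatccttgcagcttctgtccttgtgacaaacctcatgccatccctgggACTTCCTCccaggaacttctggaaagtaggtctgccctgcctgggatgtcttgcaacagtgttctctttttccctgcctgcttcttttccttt
Tnfrsf21 24.2 kb: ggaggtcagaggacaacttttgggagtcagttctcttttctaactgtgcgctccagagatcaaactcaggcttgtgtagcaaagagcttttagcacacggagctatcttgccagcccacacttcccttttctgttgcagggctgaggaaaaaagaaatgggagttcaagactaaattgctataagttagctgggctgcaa

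The 74 library columns were sequenced to between 4.30 and 21.5 M tags, with a median of 13 M, and between 2.79% and 52.8% of the tags of a library lay in its regions. Regions at all 8 macrophage marker genes were present in every table, beside 4 to 6 of 6 osteoclast genes, 0 to 5 of 6 T cell genes, 0 to 2 of 4 B cell genes, 1 to 2 of 3 NK cell genes, 0 to 3 of 4 neutrophil genes and 0 to 3 of 4 fibroblast genes. In bulk chromatin, fewer cells that carry a mark and less of it per cell cannot be told apart.

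KLA raised the occupancy of the superfamily loci for most targets, and ligand genes held the larger part of the higher NCoR, HDAC3, p65, p300 and PGC1β calls. Over the 8 targets measured with Veh and KLA, 459 of 1148 regions were higher and 100 were lower by more than 2-fold at an adjusted p under 0.05 (edgeR quasi-likelihood test, adjusted over all regions of a table). Of the 37 genes with such a region, 15 had only higher calls, 6 had only lower calls, 15 had both and 1 (Tnfrsf10b, a TRAIL receptor, with 1 PU.1 region) had none. Counts given for single genes below pool these 8 targets. A locus bound by several targets counts once for each in such pooled numbers. Joined within 500 bp, the regions formed 287 sites, 205 of them with regions of at least 2 targets. Pooled numbers are therefore not counts of separate loci, and no pooled share of all regions is given beside them. Among all regions the share called higher ran from 4.53% (PU.1) to 57% (p65). The share called lower ran from 2.53% (ERK1) to 21.7% (PU.1). For p65, 122 of 158 superfamily regions were higher, beside 57% of all regions, and 6 were lower, beside 5.43%. For p300, 110 of 205 were higher (all regions 42.1%) and 22 were lower (all regions 12.9%). The corepressor subunits moved the same way, with 67 of 174 higher for NCoR (all regions 23.4%) and 73 of 161 higher for HDAC3 (all regions 27.5%). Lower NCoR calls numbered 21 (all regions 16.7%) and lower HDAC3 calls 14 (all regions 11.3%).

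PGC1β was higher at 36 of 121 superfamily regions (all regions 16.4%) and lower at 7 (all regions 6.35%). ERK1 was higher at 21 of 90 (all regions 10.3%) and lower at 2 (all regions 2.53%), and Fosl2 was higher at 23 of 98 (all regions 11.4%) and lower at 3 (all regions 4.19%). PU.1 differed from the others in that 25 of 141 regions were lower (all regions 21.7%) and 7 were higher (all regions 4.53%). Ligand genes held 47 of the 67 higher NCoR calls, 51 of 73 for HDAC3, 78 of 122 for p65 and 66 of 110 for p300, from 107, 99, 91 and 113 regions tested. They held 23 of 36 for PGC1β (67 regions) and 11 of 21 for ERK1 (40 regions), while receptor genes held 12 of 23 for Fosl2 (40 regions) and 5 of 7 for PU.1 (71 regions). Receptor genes, with 67, 62, 67 and 92 regions tested for these targets, held 12 of the 21 lower NCoR calls and 14 of the 22 lower p300 calls.

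The median log2 fold change of the superfamily regions lay above that of all regions for each of the 8 targets. It was 0.77 against 0.10 for NCoR, 0.84 against 0.27 for HDAC3, 2.11 against 1.46 for p65 and 1.32 against 0.65 for p300. For the others it was 0.81 against -0.14 (Fosl2), -0.25 against -0.41 (PU.1), 0.50 against 0.06 (PGC1β) and 0.97 against 0.26 (ERK1). Counts scaled to library totals were used throughout, and TMM scaling, which centres the bulk of the regions, moved the log2 fold change of all regions by -1.22 for p65, -0.52 for p300, -0.28 for HDAC3, -0.20 for ERK1, -0.11 for PGC1β, 0.00 for Fosl2 and 0.42 for PU.1. With TMM the superfamily calls were 72 higher (all regions 27.6%) and 16 lower (all regions 21.3%) for p65, 85 (32.7%) and 37 (23.9%) for p300, 34 (15.8%) and 14 (9.13%) for PGC1β, and 26 (9.13%) and 9 (10.6%) for PU.1, so the predominance of lower PU.1 calls depended on the scaling. Leaving out 1 library moved some of the counts by more than 1.5 times: the called regions went from 26 to 0 for Fosl2 without Veh replicate 1, from 87 to 37 for HDAC3 without Veh replicate 1, from 88 to 47 for NCoR without KLA replicate 2, from 128 to 79 for p65 without KLA replicate 2, from 43 to 20 for PGC1β without Veh replicate 2 and from 23 to 10 for ERK1 without KLA replicate 1, whereas they stayed between 101 and 134 for p300 and between 28 and 37 for PU.1.

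**Figure D1:**
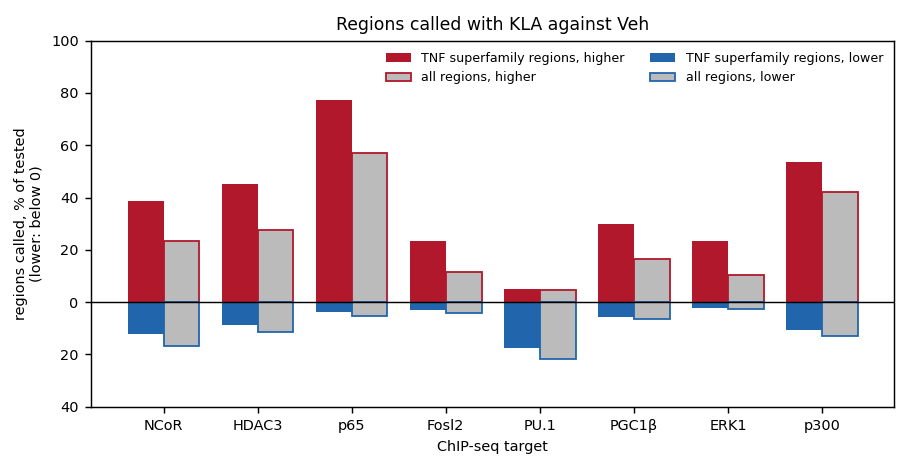
Share of regions (vertical axis, percent of those tested) called higher with KLA than with Veh (drawn above 0) or lower (drawn below 0) for each of the 8 ChIP targets (horizontal axis), for the superfamily regions (filled) and for all regions tested (grey). For p65 the superfamily share was 77.2% higher beside 57% of all regions, and PU.1 was the target with more lower than higher calls among the superfamily regions.

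The Tnf locus on chromosome 17, which encodes the founding ligand of the family, gained all 8 targets at or near its promoter. At Tnf -0.6 kb, p65 had 21 and 21.4 tags per 10 M in the Veh libraries and 295 and 297 in the KLA libraries (log2 fold change 3.79 ± 0.25 (SE), adjusted p = 1e-06). HDAC3 had 10.2 and 8.85 tags with Veh and 128 and 281 with KLA (log2 fold change 4.39 ± 0.44 (SE), adjusted p = 3.6e-21). NCoR had 3.58 and 22.4 with Veh and 108 and 92.7 with KLA (log2 fold change 2.93 ± 0.51 (SE), adjusted p = 0.0013). The KLA libraries lay above the Veh libraries for all 3, although the NCoR Veh libraries differed from each other several-fold. Fosl2 rose from 1.41 and 5.24 to 65.2 and 206 tags (log2 fold change 5.22 ± 1.02 (SE), adjusted p = 1.6e-05), with KLA libraries that also differed. PGC1β rose from 3.53 and 7.90 to 50.2 and 33.2 tags (log2 fold change 2.79) and p300 from 15.7 and 8.54 to 176 and 163 (log2 fold change 3.80). PU.1 rose too, from 52.7 and 44.2 to 96.2 and 112 tags at Tnf -0.5 kb (log2 fold change 1.09 ± 0.16 (SE), adjusted p = 1.6e-09). For ERK1, whose nearest region was the start site itself, the values were 48.8 and 59.0 with Veh and 203 and 146 with KLA (log2 fold change 1.69).

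A second site lay just past the end of Tnf, at about +3.4 kb. There HDAC3 rose from 3.64 and 5.53 to 148 and 212 tags (log2 fold change 5.23), Fosl2 from 7.05 and 3.15 to 135 and 239.6 (log2 fold change 5.20) and ERK1 from 14.2 and 2.31 to 247 and 176 (log2 fold change 4.78 ± 0.55 (SE), adjusted p = 0.0036). PGC1β rose from 6.46 and 11.6 to 95 and 68.1 tags (log2 fold change 3.12), and p300 at +3.2 kb from 13.2 and 13.1 to 171 and 208 (log2 fold change 3.84). NCoR, with few tags in the Veh libraries, had a KLA to Veh ratio of 19.7 (95% counting interval 6.54 to 97.3). The KLA libraries did not overlap the Veh libraries at this site for any of these targets. Inside the gene, at Tnf +0.8 kb, the targets went apart. PU.1 fell from 152 and 171 to 51.7 and 61.2 tags (log2 fold change -1.51 ± 0.14 (SE), adjusted p = 1.2e-19), while PGC1β rose from 15.3 and 26 to 53.5 and 68.1 (log2 fold change 1.55) and p300 from 43.9 and 29.6 to 119 and 134 (log2 fold change 1.78). Tnf +0.8 kb was 1 of 5 superfamily sites with calls in both directions, beside 1493 of all 106159 sites.

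Lta and Ltb encode the lymphotoxin subunits and flank Tnf. Of 47 regions nearest Lta, 28 were higher and none was lower. At Lta -14.4 kb, annotated to the transcript end of a neighboring gene, NCoR had 191 and 195 tags with Veh and 464 and 434 with KLA (log2 fold change 1.21), and p65 had 42.9 and 69.9 and 415 and 486 (log2 fold change 3.0). HDAC3 rose by 1.97, p300 by 1.97 and PGC1β by 1.49 on the log2 scale, with no overlap between the groups. Ltb had 6 regions, of which p65 at -1.3 kb was the 1 called, with 26.3 and 20.5 tags with Veh and 69.5 and 61.6 with KLA (log2 fold change 1.48, against 0.25 at an adjusted p of 0.57 with TMM).

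At the costimulatory ligand genes the higher calls described here lay away from the promoter, as did most regions of any gene. Within 1 kb of a start site lay 13.3% of the superfamily p65 regions and 15.3% of all p65 regions. Tnfsf4 had 59 of 92 regions higher and 2 lower, and Tnfsf15 53 of 94 higher and 0 lower. Tnfsf8 had 44 of 116 higher and 8 lower, and Tnfsf18 30 of 109 higher and 7 lower. By target, 4.53% (PU.1) to 57% (p65) of all regions were higher. Lower calls ran from 2.53% (ERK1) to 21.7% (PU.1) of all regions. Tnfsf18 was higher at 13 of 14 p65 regions (all regions 57%) but at 4 of 18 p300 regions (all regions 42.1%) and 0 of 11 PGC1β regions (all regions 16.4%). At Tnfsf4 -16.3 kb, NCoR rose from 10.8 and 9.42 to 182 and 141 tags (log2 fold change 3.99 ± 0.34 (SE), adjusted p = 4.6e-05) and HDAC3 from 13.8 and 6.64 to 175 and 197 (log2 fold change 4.20 ± 0.44 (SE), adjusted p = 1.1e-19). p65 went from 0 and 0.932 to 113 and 125 tags, a pooled ratio of 263 (95% counting interval 47.0 to 10436). The site was close to empty with Veh for p65, while NCoR and HDAC3 had some tags there before KLA. Fosl2 (5.49), PGC1β (3.83), ERK1 (3.30) and p300 (3.42) rose at the same site on the log2 scale. At Tnfsf4 -41.0 kb, PU.1 was among 7 targets that rose, from 56.4 and 64.7 to 129.5 and 129 tags (log2 fold change 1.10).

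Tnfsf8, which encodes CD30 ligand, carried sites that moved in opposite directions. The intergenic site at -74.3 kb had no NCoR tags in either Veh library and 70.5 and 98.2 tags with KLA, at least 48.0-fold higher against a floor of 3 tags over the Veh group. It also had no p65 tags with Veh and 132 and 166 with KLA (at least 109.8-fold higher), and Fosl2 went from 0 to 97.8 and 134 (at least 67.7-fold higher). ERK1 was at 0 with Veh and at 24.6 and 23.1 with KLA (at least 12.0-fold higher), HDAC3 had a pooled ratio of 123 (95% counting interval 33.6 to 1024) and p300 of 173 (95% counting interval 47.6 to 1432). This site, which holds 2 overlapping NF-κB matches in 1 stretch of letters, was empty or nearly empty of 6 targets before KLA. A region could enter as a peak of the KLA libraries alone, so the near absence of Veh tags is partly set by that choice. In intron 2 of the same gene, at about +13.9 kb, PU.1 fell from 109 and 105 to 22.2 and 22.9 tags (log2 fold change -2.24 ± 0.19 (SE), adjusted p = 4.1e-21). HDAC3 fell there from 71.3 and 74.7 to 7.62 and 10.5 tags (log2 fold change -3.07 ± 0.51 (SE), adjusted p = 3e-08). NCoR had 22.7 and 88.3 with Veh and 22.7 and 6.92 with KLA (log2 fold change -1.93), so 1 Veh library was level with 1 KLA library, and its call was lost without Veh replicate 2 or KLA replicate 2. Fosl2 (-3.68) and PGC1β (-3.18) were also lower on the log2 scale, and the p300 value of -0.90 did not pass the test.

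Tnfsf15, encoding TL1A, gained NCoR at -12.9 kb from no tags to 103 and 85.8 (at least 52.6-fold higher). HDAC3 rose from 2.91 and 1.11 to 86.7 and 144 tags (log2 fold change 5.83), p65 from 3.50 and 0 to 138 and 133 (log2 fold change 6.16) and p300 from 0 and 2.63 to 113 and 87.6 (log2 fold change 6.21). Tnfsf18, encoding GITR ligand, lost targets at its promoter and gained them inside the gene. At Tnfsf18 -0.2 kb, PU.1 fell from 101 and 131 to 38.6 and 49.7 tags (log2 fold change -1.38), and NCoR (-2.06) and HDAC3 (-1.78) were lower too. With TMM the PU.1 value was -0.97, short of 2-fold. At about +5.9 kb, NCoR (2.83), HDAC3 (3.53), p65 (3.22), Fosl2 (2.76) and p300 (2.22) were higher on the log2 scale.

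Tnfsf12 and Tnfsf13 had lower calls with KLA and no higher ones. They encode TWEAK and APRIL, lie side by side on chromosome 11 and share the read-through gene Tnfsfm13. Tnfsf12 had 11 of 16 regions lower and none higher, and Tnfsf13 had 8 of 14 lower and none higher. Of the 5 regions given to Tnfsfm13, 1 was higher (p300) and 1 was lower (PU.1). At the Tnfsf12 promoter, PU.1 had 297 and 304 tags with Veh and 103 and 112 with KLA (log2 fold change -1.48 ± 0.10 (SE), adjusted p = 7.1e-29). NCoR had 153 and 149 with Veh and 30.0 and 20.1 with KLA (log2 fold change -2.60 ± 0.29 (SE), adjusted p = 0.00014), and p300 had 140.4 and 112 and 29.7 and 34.0 (log2 fold change -1.98). Both KLA libraries lay below both Veh libraries for these 3 targets. HDAC3 (-1.63), p65 (-1.21), Fosl2 (-3.03) and PGC1β (-1.77) fell there as well, so all 7 targets with a region at this promoter were called lower, and TMM and DESeq2 kept each call. At about Tnfsf12 +3.7 kb the NCoR (-1.58), HDAC3 (-1.69), PU.1 (-1.24) and p300 (-1.01) regions fell on the log2 scale. The PU.1 value was -0.83 with TMM. The Tnfsf13 promoter fell for NCoR (-1.72), HDAC3 (-1.56) and p300 (-1.13).

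Among the other ligand genes, Tnfsf14 (LIGHT) had both directions. NCoR at its promoter fell from 158 and 164 to 55.1 and 51.2 tags (log2 fold change -1.60), and at +11.2 kb both NCoR (-1.46) and HDAC3 (-1.67) fell. At -4.3 kb p65 (1.63) and PGC1β (1.14) rose, though with TMM the p65 value was 0.40 at an adjusted p of 0.06. The promoter of Tnfsf13b, which encodes the B-cell survival factor BAFF, rose for p300 (2.10), ERK1 (2.31), p65 (1.73), PGC1β (1.71) and HDAC3 (1.17). With TMM the p65 value was 0.49 at an adjusted p of 0.28 and the HDAC3 value was 0.90, short of 2-fold. H3K27ac at this promoter in WT cells was lower with KLA, from 8.20 and 11.7 to 1.26 and 1.38 tags (log2 fold change -2.85 ± 1.02 (SE), edgeR adjusted p = 0.049). DESeq2 gave no adjusted p there. Tnfsf9 (4-1BB ligand) had 13 of 26 regions higher, and Tnfsf10 (TRAIL) had 13 of 22 higher, including HDAC3 at its promoter (1.69), and 1 lower. Tnfsf11, encoding RANKL, had just 2 regions, and its p65 region at -11.1 kb went from no tags to 17.4 and 22.6 (at least 14.7-fold higher).

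Fas, the death receptor for FASL, gained 7 targets at its promoter. At Fas -0.2 kb, p65 had 16.6 and 20.5 tags with Veh and 317 and 334 with KLA (log2 fold change 4.13 ± 0.25 (SE), adjusted p = 8.7e-07). NCoR had 7.17 and 17.7 with Veh and 253 and 266 with KLA (log2 fold change 4.37 ± 0.33 (SE), adjusted p = 3.1e-05). HDAC3 had 18.2 and 19.9 with Veh and 247 and 419.7 with KLA (log2 fold change 4.11 ± 0.42 (SE), adjusted p = 3.9e-20). The groups did not overlap, and the replicates of p65 and of KLA-treated NCoR lay close together. Fosl2 rose by 4.16, p300 by 3.02, ERK1 by 2.80 and PGC1β by 2.5 on the log2 scale, and the PU.1 table held no region there. The AP-1 match printed above lies in this window. Over all targets, Fas had 27 of 50 regions higher and 1 lower.

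Tnfrsf14 encodes HVEM, the receptor for LIGHT and lymphotoxin-α. It had 30 of 56 regions higher and none lower, in all 8 targets. At -14.8 kb p65 had no tags with Veh and 199 and 212 with KLA (at least 152-fold higher). NCoR went from 3.58 and 0 to 88.3 and 96.1 tags, a ratio of 52.0 (95% counting interval 17.6 to 254), and HDAC3 from 0.727 and 0.553 to 83.2 and 191, a ratio of 176 (95% counting interval 48.1 to 1457). p300 rose from 0.627 and 1.97 to 93.6 and 134 tags (log2 fold change 6.39). The Veh libraries were at or close to 0 at this intergenic site, which holds 1 NF-κB match. PU.1 rose at -4.9 kb from 12.4 and 11.2 to 89.0 and 77.7 tags (log2 fold change 2.81 ± 0.23 (SE), adjusted p = 6.8e-22), the higher PU.1 call with the lowest p among the superfamily regions. The promoter itself rose for p65 at -0.1 kb (1.12), a value that became -0.12 with TMM.

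**Figure D2:**
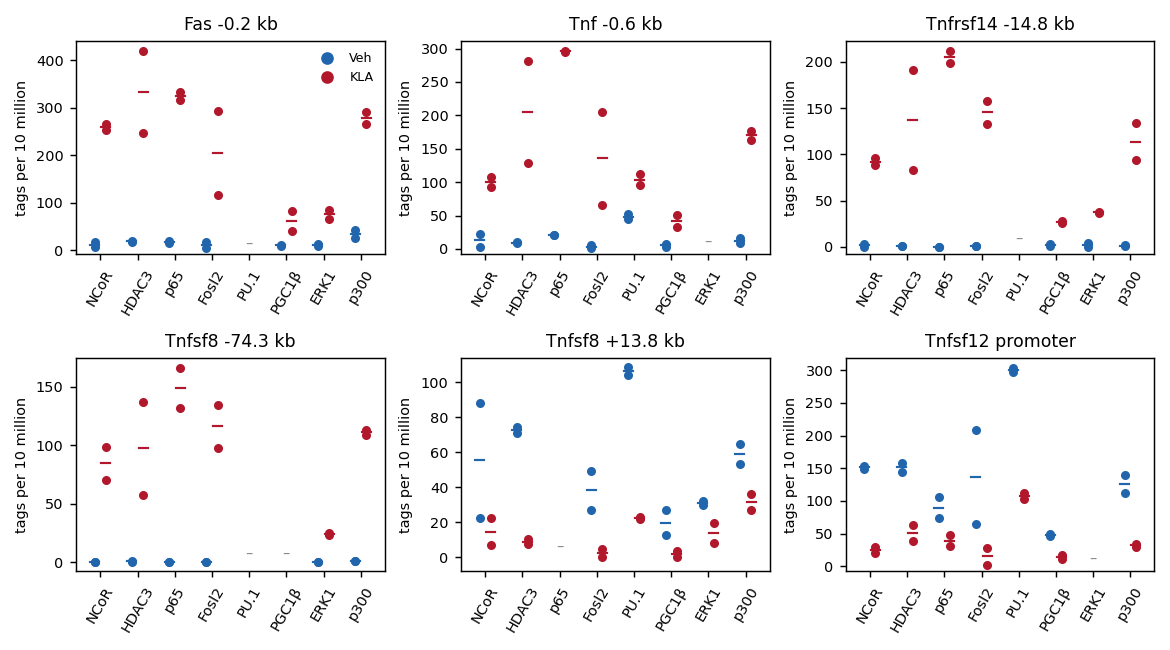
Tags per 10 M mapped tags (vertical axis) in each library at 6 superfamily sites, by ChIP target (horizontal axis), with Veh in blue and KLA in red, points for libraries and bars for group means; a dash marks a target with no region there. At Fas -0.2 kb, Tnf -0.6 kb, Tnfrsf14 -14.8 kb and Tnfsf8 -74.3 kb the KLA points lie above the Veh points, and at the Tnfsf12 promoter they lie below for all 7 targets with a region.

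Tnfrsf1b, which encodes TNF receptor 2 and is the gene with the most regions of the family (161), split by position. Upstream of the gene KLA added targets, and from +12.7 kb onward it removed them. At -14.7 kb p65 rose from 7.0 and 2.80 to 344 and 389 tags (log2 fold change 6.18 ± 0.34 (SE), adjusted p = 6.7e-07), p300 from 28.8 and 16.4 to 453 and 540.4 (log2 fold change 4.44 ± 0.21 (SE), adjusted p = 1.7e-10) and NCoR from 11.9 and 14.1 to 89.9 and 65 (log2 fold change 2.56 ± 0.39 (SE), adjusted p = 0.00067). HDAC3 (3.18), Fosl2 (4.64) and PGC1β (3.68) rose on the log2 scale, and ERK1 had a ratio of 22.6 (95% counting interval 7.43 to 112). At -27.2 kb, a position inside an intron of the neighboring receptor gene Tnfrsf8, p65 rose from 6.13 and 13.1 to 371 and 393 tags (log2 fold change 5.31) and p300 from 12.5 and 7.89 to 385 and 426 (log2 fold change 5.30). NCoR (1.85), HDAC3 (3.24), Fosl2 (3.29), PGC1β (3.49) and ERK1 (4.36) rose there too.

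Deeper inside Tnfrsf1b the direction turned. At +17.6 kb NCoR had 155 and 152 tags with Veh and 30.0 and 38.7 with KLA (log2 fold change -2.15), PU.1 had 138 and 164 and 37.3 and 52.3 (log2 fold change -1.74), and p300 had 60.2 and 72.9 and 11.3 and 7.57 (log2 fold change -2.81 ± 0.35 (SE), adjusted p = 5e-06). At +13 kb NCoR fell from 265 and 358 to 141 and 110.0 tags (log2 fold change -1.31) and p300 from 125 and 112 to 38.9 and 29.7 (log2 fold change -1.78). At both sites the KLA libraries lay below the Veh libraries, while p65 was not called at any region between +13 and +17.6 kb. HDAC3 fell by 1.88 at +14.9 kb and PU.1 by 1.05 on the log2 scale, and the PU.1 values at +13 and +14.9 kb were -0.70 and -0.63 with TMM. Upstream the exception was PGC1β at -3.8 kb, which was lower (-2.02), and near the start site ERK1 at +1.3 kb (2.51) and p300 at +2.5 kb (1.39) were higher.

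**Figure D3:**
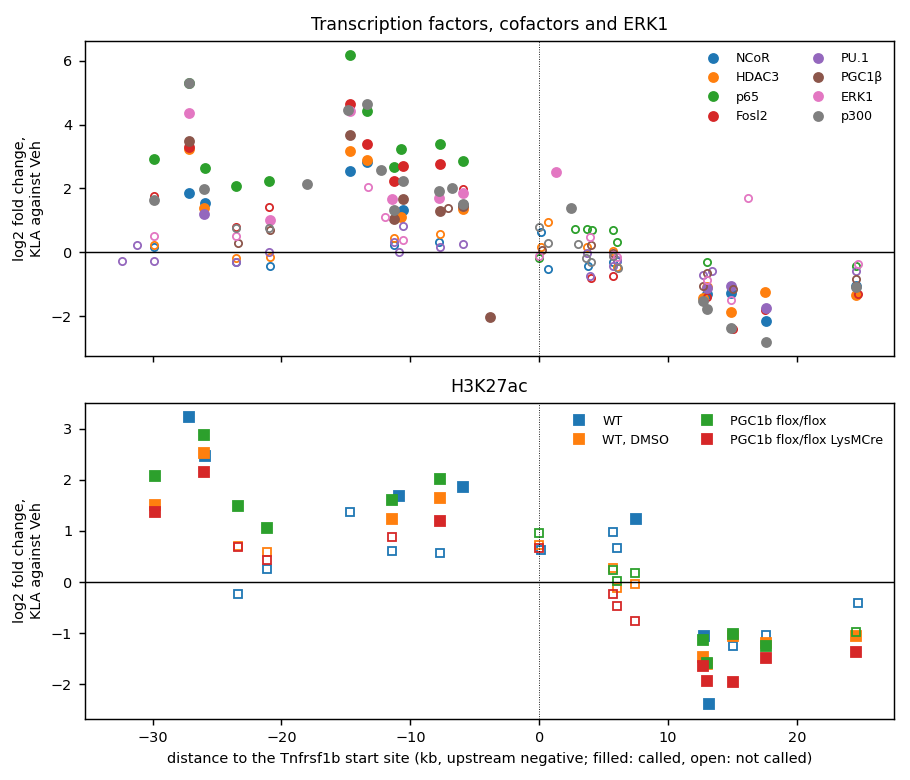
Log2 fold change with KLA against Veh (vertical axis) of each region nearest Tnfrsf1b by its distance in kb from the start site (horizontal axis), for the ChIP targets and for H3K27ac, filled where called. Called regions upstream lie above 0, with PGC1β at -3.8 kb as the exception, and called regions from +12.7 kb onward lie below 0.

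Tnfrsf8, encoding CD30, had 15 of 26 regions higher and none lower. At +31.6 kb p65 rose from 16.6 and 39.2 to 451 and 491 tags (log2 fold change 4.09) and p300 from 5.64 and 12.5 to 312 and 357 (log2 fold change 5.21). Tnfrsf9, encoding 4-1BB, had few tags before KLA. Its promoter had no p65 tags with Veh and 20.0 and 20.5 with KLA (at least 15-fold higher), and p65 at +2.3 kb had a ratio of 46.0 (95% counting interval 12.5 to 384). Tnfrsf17, encoding BCMA, a receptor of plasma cells, rose at -27.7 kb for p65 (3.73), p300 (3.04) and NCoR (2.71) and fell at +1.6 kb, where PU.1 went from 89.5 and 103 to 23.6 and 18.5 tags (log2 fold change -2.19), and where p300 (-3.01) and Fosl2 (-2.93) were lower on the log2 scale. Ngfr, the p75 neurotrophin receptor, had a single site at +19.2 kb, where NCoR went from no tags to 34.8 and 33.9 (at least 19.3-fold higher) and HDAC3 had a ratio of 51.8 (95% counting interval 13.8 to 435). Ltbr, the lymphotoxin-β receptor, rose at +2.5 kb for NCoR, with a ratio of 18.9 (95% counting interval 6.26 to 93.3), and for HDAC3 (2.41).

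Tnfrsf21, the death domain receptor DR6, had 9 of 34 regions lower and none higher. At +24.2 kb, in intron 3, PU.1 fell from 222 and 208 to 49.1 and 49.7 tags (log2 fold change -2.12 ± 0.13 (SE), adjusted p = 6.7e-33). p300 fell there from 40.1 and 55.2 to 1.02 and 5.40 tags (log2 fold change -3.88 ± 0.54 (SE), adjusted p = 1.5e-05) and NCoR from 53.8 and 31.8 to 11.3 and 10.4 (log2 fold change -1.97). PGC1β fell by 1.66 on the log2 scale at the site, and the promoter was lower for PGC1β (-1.01) and p300 (-1.17). The Veh and KLA libraries of PU.1, p300 and NCoR did not overlap, and the PU.1 call had the lowest p of the lower PU.1 calls in the family. Tnfrsf1a, TNF receptor 1, had 8 of 35 regions lower and 3 higher. Its NCoR region at -10.3 kb had a log2 fold change of -2.74, with p300 at -2.50, and at +5.1 kb NCoR (-1.36), HDAC3 (-1.09) and PU.1 (-1.15) were lower, while p65 at -7.3 kb was higher (3.10). With TMM the PU.1 value at +5.1 kb was -0.74. Tnfrsf12a, the TWEAK receptor, lost NCoR at +1.5 kb, from 40.6 and 25.9 to 4.86 and 2.77 tags (log2 fold change -3.11).

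The death domain receptors as a group had 5 of 17 NCoR regions higher (all regions 23.4%) and 6 lower (all regions 16.7%), and their median log2 fold change was -0.70 against 0.10 for all regions. For HDAC3 they had 6 of 15 regions higher (all regions 27.5%) and 1 lower (all regions 11.3%), with a median of 0.36 against 0.27. Higher NCoR calls came from Fas and Ngfr, and lower ones from Tnfrsf1a, Tnfrsf21 and 1 Fas region. For p65, 9 of 17 death domain receptor regions were higher (all regions 57%) and 1 lower (all regions 5.43%), with a median of 1.71 against 1.46. The decoy receptor genes (Tnfrsf11b, Tnfrsf22 and Tnfrsf23) had 1 of 4 NCoR, 3 of 4 p65 and 4 of 7 p300 regions higher (all regions 23.4%, 57% and 42.1%). None of their 3 HDAC3, 4 Fosl2 and 2 PGC1β regions was higher (all regions 27.5%, 11.4% and 16.4%), and 1 of 3 PU.1 regions was lower (all regions 21.7%). With so few regions these counts cannot be told apart from the shares of all regions. Tnfrsf11b encodes osteoprotegerin, and its p65 region at +164.2 kb rose by 3.95 and its p300 region by 2.25 on the log2 scale, whereas p300 at +157.7 kb fell (-1.33).

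Regions of different targets within 500 bp were joined into sites, and the superfamily loci held 287 of 106159 such sites. Of 114 superfamily sites with regions of at least 5 targets, 34 were higher for at least 5 targets (29.8%, beside 14.2% of all such sites) and 2 were lower (1.75%, beside 3.13%). The count of lower sites was 7 with TMM and 8 with DESeq2, and that of higher sites 33 and 32. The 2 lower sites were the Tnfsf12 promoter and Tnfsf8 +13.9 kb. Higher calls for 7 targets were found at 8 sites, namely Tnfsf4 -41.0 and -16.3 kb, Tnf -0.6 kb, Fas -0.2 kb, Tnfrsf1b -14.7 and -27.2 kb, Tnfrsf8 +31.6 kb and Tnfrsf14 -14.8 kb. None of the 41 superfamily sites with regions of all 8 targets was higher for all 8, beside 418 of 11532 among all sites. NF-κB letters were held by 11 of 67 higher NCoR regions (16.4%, beside 12.7% of all higher NCoR regions) and by 0 of 21 lower ones (3.95% of all lower ones). For HDAC3 the counts were 14 of 73 higher regions (19.2%, beside 12.7%) and 0 of 14 lower ones. The PU.1 letters were held by 5 of 25 lower PU.1 regions (20.0%, the same as the 20.0% of all lower PU.1 regions). Matches in such a window describe its letters and were not tied to binding.

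**Figure D4:**
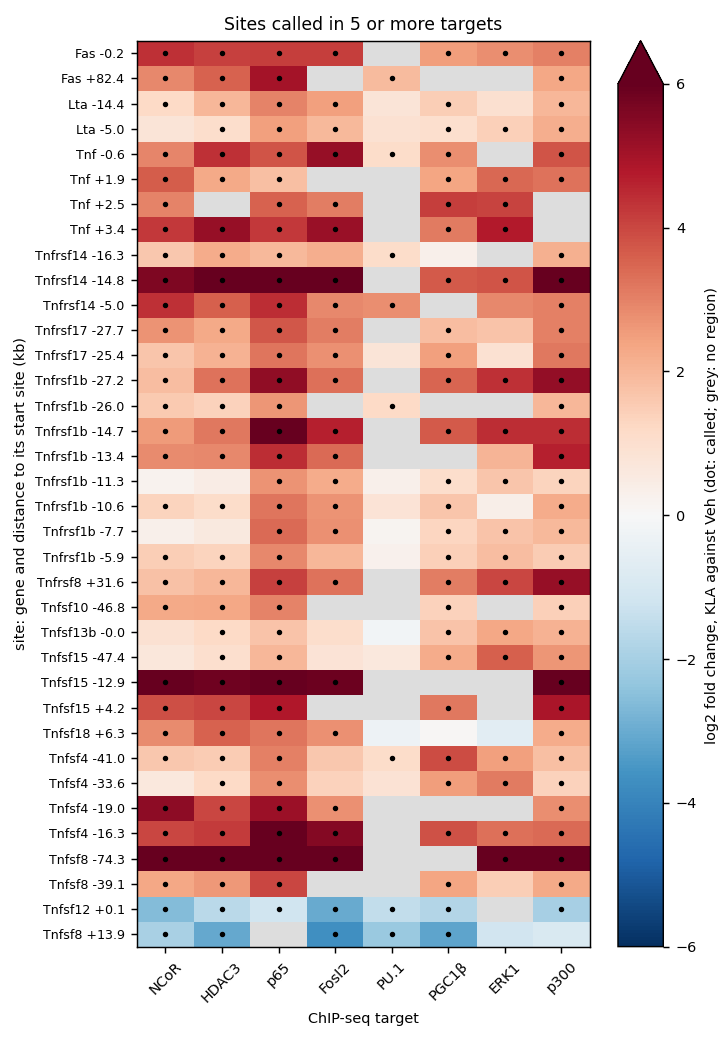
Log2 fold change with KLA against Veh (colour, saturating at 6 in either direction) of the superfamily sites (rows) called in at least 5 of the 8 ChIP targets (columns); dots mark called regions and grey marks no region. Of the 36 sites 34 are higher, and the Tnfsf12 promoter and Tnfsf8 +13.9 kb are lower; with TMM the lower sites number 7.

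H3K27ac at the superfamily loci was next compared between NCoR flox/flox (WT) and NKO macrophages. In WT cells KLA raised 8 of 42 regions (all regions 6.49%) and lowered 3 (all regions 3.72%). In NKO cells it raised 3 (all regions 2.75%) and lowered 3 (all regions 7.96%). With TMM 8 were higher in WT (all regions 4.84%) and 5 in NKO cells (all regions 4.29%). The lower calls in WT cells were Tnfrsf1b +12.8 and +13.2 kb and the Tnfsf13b promoter described above. The marked changes were at Tnfrsf1b, where -10.9 kb rose in WT cells from 107 and 92.7 to 296 and 341 tags (log2 fold change 1.68 ± 0.14 (SE), adjusted p = 3e-12) and -27.2 kb from 3.15 and 6.62 to 54.1 and 40.7 (log2 fold change 3.22). Tnfrsf1b +13.2 kb fell from 149 and 127 to 30.8 and 21.4 (log2 fold change -2.39 ± 0.24 (SE), adjusted p = 3.1e-10). Gains upstream and losses from about +13 kb were thus found for the mark as for the bound factors, and +7.5 kb rose (1.23). Tnf +1.3 kb rose from 16.4 and 32.6 to 96.2 and 91.0 tags in WT cells (log2 fold change 1.91), and the Tnfrsf14 promoter rose by 1.24 on the log2 scale.

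NKO and WT cells differed by few calls. With Veh, edgeR called 0 of 42 regions higher or lower in NKO (all regions 0.973% and 0.027%), 7 had an unadjusted p under 0.05 and DESeq2 called 0 higher and 0 lower. With KLA, 1 region was higher (all regions 0.4%) and 0 were lower (all regions 0.389%). It was Tnfsf12 +3.7 kb, with 6.92 and 13.1 tags in the WT KLA libraries and 32.9 and 34.0 in the NKO KLA libraries (log2 fold change 1.74 ± 0.43 (SE), adjusted p = 0.025). The response to KLA itself, tested as an edgeR interaction, differed by more than 2-fold at 0 regions (all regions 0.027% positive and 0.67% negative). There were 11 regions at an unadjusted p under 0.05, of which 9 had a negative interaction, a lower log2 change with KLA in NKO. DESeq2 called 0 and 0. The median interaction was -0.30 for the superfamily and -0.34 for all regions, and 0.05 and 0.00 with TMM. At Tnf +1.3 kb the NKO values were 40.6 and 38.3 with Veh and 56.3 and 51.4 with KLA (log2 fold change 0.45), and the interaction was -1.45 at an adjusted p of 0.053 by edgeR. The WT KLA libraries were the highest of the 4 groups there, while the NKO Veh libraries started above the WT ones. At Tnfrsf1b -10.9 kb the NKO values were 185 and 163 and 279 and 325, and the interaction was -0.88 (edgeR adjusted p = 0.017), a value that was -0.53 at an adjusted p of 0.30 with TMM.

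The RGFP966 table and the Pgc1b table held no region at Tnf, Lta or Ltb. In DMSO cells KLA raised 8 of 56 regions (all regions 6.73%) and lowered 15 (all regions 28.1%), and with TMM, which moved all regions by 0.42, the counts were 16 (all regions 12.5%) and 8 (all regions 17.2%). Tnfrsf1b -26.0 kb rose from 83.1 and 70.6 to 475 and 417 tags (log2 fold change 2.54 ± 0.22 (SE), adjusted p = 9e-29), and +13 kb fell from 472 and 462 to 174 and 130.4 (log2 fold change -1.61). The promoters of Tnfsf10 (2.07) and Fas (1.59) rose, and those of Tnfrsf23 (-1.80), Tnfrsf21 (-1.74) and Tnfsf14 (-1.74) fell on the log2 scale. In NCoR flox/flox (WT) cells KLA gave no call at the Fas promoter (0.37, edgeR adjusted p = 0.67) or the Tnfrsf23 promoter (-0.86, edgeR adjusted p = 0.23). The Tnfrsf21 promoter had too few tags to be tested in those cells. With RGFP966 and KLA, 19 regions were higher than with DMSO and KLA (all regions 26.9%) and 2 were lower (all regions 9.53%), beside 7 (all regions 16.1%) and 8 (all regions 18.9%) with TMM, which moved all regions by -0.34. Ligand genes held 14 of the 19 higher calls from 23 regions, and receptor genes held 5 from 33, with both lower calls.

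Some of the regions higher with RGFP966 were ones that KLA had lowered, and both comparisons use the same DMSO KLA libraries. Tnfsf12 +3.7 kb had 325 and 322 tags with DMSO Veh, 131 and 109 with DMSO KLA and 278 and 255 with RGFP966 and KLA (log2 fold change against DMSO KLA 1.15, and 0.81 with TMM). The Tnfrsf23 promoter had 131 and 113, 36.9 and 32.8 and 86.9 and 82.0 tags in the same order (log2 fold change 1.27, and 0.93 with TMM). At Tnfsf8 -38.1 kb the values were 110.5 and 106, 58.9 and 26.9 and 149 and 118 (log2 fold change 1.60). In each of these the RGFP966 libraries lay above both DMSO KLA libraries, and they lay below both DMSO Veh libraries at Tnfsf12 and Tnfrsf23 and above them at Tnfsf8. The largest rise was at Tnfsf18 +22.9 kb, from 28.5 and 21 with DMSO KLA to 143 and 115 tags (log2 fold change 2.36 ± 0.27 (SE), adjusted p = 4.2e-16). The lower calls were the promoters of Tnfrsf1b, from 587 and 484 to 261 and 229 tags (log2 fold change -1.13 ± 0.19 (SE), adjusted p = 5.4e-08), and of Ltbr, from 159 and 141 to 79.6 and 65 (log2 fold change -1.05). Tnfrsf1b -26.0 kb, which KLA had raised, had 253 and 210.0 tags with RGFP966, a log2 fold change of -0.95 that fell short of 2-fold.

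In Pgc1b flox/flox macrophages KLA raised H3K27ac at 11 of 56 superfamily regions (all regions 5.22%) and lowered it at 13 (all regions 25.6%). In Pgc1b flox/flox LysMCre cells the counts were 11 (all regions 4.18%) and 15 (all regions 32.5%). With TMM, which moved all regions by 0.43 and 0.61, they were 18 (all regions 9.84%) and 7 (all regions 13.8%) in flox/flox and 20 (all regions 10.8%) and 8 (all regions 14.3%) in LysMCre cells. Tnfrsf1b -26.0 kb rose from 48.2 and 43.6 to 337 and 339.9 tags in flox/flox cells (log2 fold change 2.87) and from 44.3 and 51.1 to 203 and 221 in LysMCre cells (log2 fold change 2.16). Tnfrsf1b -23.4 kb rose from 231 and 234 to 651 and 651 in flox/flox cells (log2 fold change 1.49) and from 266 and 263 to 390.1 and 465 in LysMCre cells (log2 fold change 0.70). The KLA libraries of the LysMCre cells lay below those of the flox/flox cells at both sites, while the Veh libraries of the genotypes overlapped at -26.0 kb and were slightly higher in LysMCre cells at -23.4 kb. At Tnfrsf1b +13 kb both genotypes lost the mark with KLA (log2 fold changes -1.58 and -1.94).

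Between genotypes with Veh, 0 regions were higher (all regions 0.107%) and 1 was lower in LysMCre cells (all regions 0.29%). It was the Tnfsf10 promoter, with 25.2 and 29.1 tags in flox/flox and 13.1 and 11.9 in LysMCre cells (log2 fold change -1.11 ± 0.33 (SE), adjusted p = 0.011), a call that TMM ended (-0.90 at an adjusted p of 0.16), and DESeq2 gave no adjusted p there. With KLA, edgeR called 0 higher (all regions 0.702%) and 0 lower (all regions 6.81%) past 2-fold, 29 had an unadjusted p under 0.05, 27 of them lower, and DESeq2 called 1 higher and 0 lower. Without the 2-fold limit, 25 were lower in LysMCre cells at an edgeR adjusted p under 0.05, with log2 fold changes from -0.96 to -0.40, and none was higher. Among all regions 41.5% were lower at that threshold. For all regions the median was -0.38, beside -0.44 for the superfamily, and TMM moved all regions by 0.39. The change of the KLA response with genotype exceeded 2-fold at 0 regions upward (all regions 0.77%) and 0 downward (all regions 4.6%) by edgeR, with 22 at an unadjusted p under 0.05, and DESeq2 called 0 and 0. At an edgeR adjusted p under 0.05 alone, the interaction was negative at 15 regions and positive at 0, beside 16.4% and 2.1% of all regions. A negative value is a lower log2 change with KLA in LysMCre cells. It is a smaller rise where KLA raised the mark and a larger loss where KLA lowered it. Of the 15, 10 were Tnfrsf1b regions, with the lowest adjusted p at -23.4 kb (interaction -0.79 on the log2 scale, edgeR adjusted p = 4.3e-09). Some of the 15 lie closer together than the 1000 bp counting window and so share tags.

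**Figure D5:**
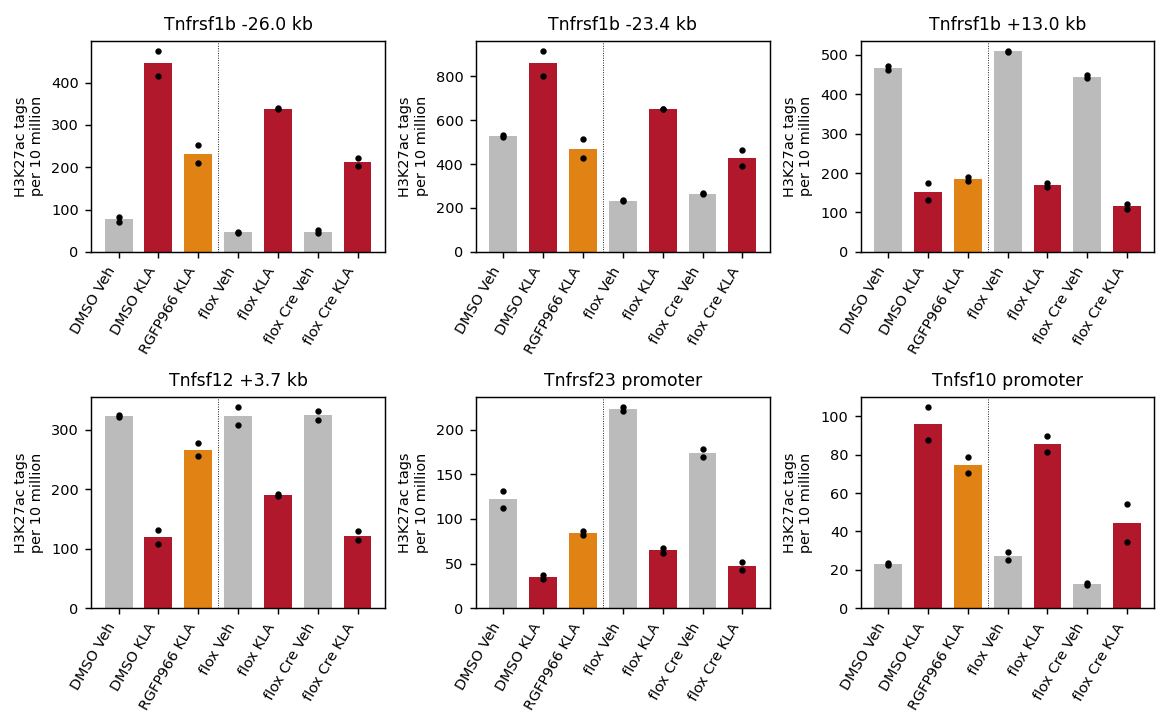
H3K27ac tags per 10 M mapped tags (vertical axis from 0) at 6 superfamily regions in the RGFP966 and Pgc1b designs, with points for libraries and bars for group means. At Tnfrsf1b -26.0 and -23.4 kb the flox Cre KLA points lie below the flox KLA points, and at Tnfsf12 +3.7 kb the RGFP966 KLA points lie above the DMSO KLA points.

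In the inhibitor design, KLA raised PGC1β in DMSO cells at 61 of 168 superfamily regions (all regions 16.4%) and lowered it at 1 (all regions 1.23%). TMM gave 37 higher (all regions 8.71%) and 4 lower (all regions 2.89%), DESeq2 gave 35 and 5, and leaving out DMSO Veh replicate 1 took the 62 calls to 36. Tnf +3.4 kb rose from 10.6 and 0 to 197 and 118 tags (log2 fold change 4.56), Fas -0.2 kb from 9.75 and 23.3 to 120.4 and 165 (log2 fold change 3.20) and Tnfrsf1b -27.2 kb by 4.62 on the log2 scale. Tnfsf4 -41.9 kb went from no tags to 43.4 and 40.2 (at least 26.6-fold higher). With ERKi added to KLA, PGC1β was called higher than with DMSO and KLA at 1 superfamily region (all regions 0.108%) and lower at 0 (all regions 0.178%) by edgeR. DESeq2 called 4 higher and 0 lower, and 28 had an unadjusted p under 0.05. The 1 region was Tnf +0.7 kb, with 32.5 and 49.5 tags with DMSO Veh, 164 and 153 with DMSO KLA and 413 and 421 with ERKi and KLA (log2 fold change 1.40 ± 0.26 (SE), adjusted p = 0.023). The 3 groups did not overlap at this site in the body of Tnf.

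NCoR after ERKi and KLA was lower than after KLA at 78 of 182 superfamily regions (all regions 48.6%) and higher at 0 (all regions 0.634%). The median was -1.08 for the superfamily and -1.20 for all regions. At Fas -0.2 kb NCoR had 304 and 316 tags with KLA and 145 and 132 with ERKi and KLA (log2 fold change -1.16), and at Tnfsf4 -66.0 kb it had 173 and 136 and 37.2 and 37.1 (log2 fold change -2.05). TMM moved all regions by 1.16 and left 8 higher (all regions 3.45%) and 5 lower calls (all regions 3.38%), with values of 0.0011 at Fas -0.2 kb and -0.88 at Tnfsf4 -66.0 kb. The library names carry other dates for ERKi than for the KLA libraries, so the date and the inhibitor cannot be told apart. These KLA libraries also carry no DMSO label, unlike those for PGC1β, so the solvent cannot be told apart from the inhibitor either.

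During osteoclast differentiation ERK1 was higher on day 4 than on day 0 at 2 of 51 superfamily regions (all regions 2.33%) and lower at 0 (all regions 0.0267%). They were Tnfsf15 +25.6 kb, with 5.17 and 3.15 tags on day 0 and 40.4 and 29.9 on day 4, and Tnfrsf19 -36.9 kb, with no tags and 43.6 and 16.7 tags (at least 20.0-fold higher), and TMM and DESeq2 called neither (Tnfrsf19 with TMM at an adjusted p of 0.18). The name of ERK1 day 4 replicate 2 carries another date and another replicate number than its title, and without it 0 regions were called. p300 was higher at 33 of 54 (all regions 62.2%) and lower at 0 (all regions 0.248%), and TMM, which moved all regions by -1.61, left 3 higher (all regions 8.80%) and 2 lower (all regions 3.83%). DESeq2 called 0, and none of the 14 quoted p300 regions kept its call in every alternative. Tnfrsf11b, whose product osteoprotegerin blocks RANKL, went at +164.2 kb from 1.76 and 0 to 46.9 and 48.8 p300 tags, a pooled ratio of 38.4 (95% counting interval 10.3 to 322). Tnfsf11, the gene of RANKL, went at -90.1 kb from 0 and 6.39 to 25.4 and 54.4, a pooled ratio of 20.8 (95% counting interval 6.85 to 103), and had an adjusted p of 0.14 with TMM. Tnfrsf1b -21.1 kb rose from 54.5 and 57.5 to 247 and 298 (log2 fold change 2.29 ± 0.32 (SE), adjusted p = 0.00026), a value of 0.67 at an adjusted p of 0.18 with TMM. The 2 days did not overlap at these sites, and the share of superfamily regions that rose lay near that of all regions.

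The genes that act downstream of the receptors were counted from a list of 22, among them the adaptors Tradd and Traf2, the kinase Ripk1, caspase-8 and the inhibitor A20 (Tnfaip3). For p65, 136 of their 180 regions were higher (all regions 57%) and 8 lower (5.43%), for p300 115 of 204 (42.1%) and 20 (12.9%), and for HDAC3 78 of 170 (27.5%) and 10 (11.3%). NCoR was higher at 62 of 174 (23.4%) and lower at 18 (16.7%), PGC1β at 45 of 121 (16.4%) and 5 (6.35%), and ERK1 at 31 of 98 (10.3%) and 3 (2.53%). Fosl2 was higher at 29 of 96 (11.4%) and lower at 1 (4.19%), and PU.1 at 22 of 138 (4.53%) and 16 (21.7%). The 8 superfamily genes with other names (Fasl, Cd40, Cd40lg, Cd70, Eda, Edar, Eda2r and Relt) had 5 of 13 NCoR, 5 of 13 HDAC3 and 11 of 15 p65 regions higher (all regions 23.4%, 27.5% and 57%) and none lower for these targets. For p300, 8 of 22 were higher (all regions 42.1%) and 1 lower (12.9%), and for PU.1 1 of 17 (4.53%) and 3 (21.7%). ERK1 was higher at 2 of 9 (10.3%) and lower at 1 (2.53%). Fosl2 was higher at 2 of 7 (11.4%) and PGC1β at 6 of 19 (16.4%), with none lower (4.19% and 6.35%). Cd40, the costimulatory receptor of macrophages and B cells, was among the higher ones for NCoR, HDAC3 and p65. It had both higher and lower p300 calls.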

How the data were processed

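ChIP-seq libraries of mouse bone marrow-derived macrophages and osteoclast precursors were analysed from 15 deposited tables with 74 library columns. They stand for 70 of 100 samples, and the 30 input samples were not used here. The authors aligned reads to mm10 with Bowtie2 and counted tags per region with HOMER (at most 3 tags per position, no normalization), and DESeq2 is also named in the submitters' processing notes, without versions. Values are therefore the deposited raw tag counts, and tags per 10 M divide them by the mapped total in each column header. The precision of a value is limited by its tag count, by depth (4.30 to 21.5 M tags) and by 2 libraries per group, which the labels describe as biological replicates.

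Groups were taken from the sample labels. Regions with at least 4 tags in 1 library (16 for H3K27ac) were tested by edgeR 4.0.16 (glmQLFit and glmQLFTest, 2-sided, limma 3.58.1, R 4.3.3) with library sizes from the headers and Benjamini-Hochberg adjustment over all regions of a table. A call needed an adjusted p under 0.05 and more than a 2-fold change. Errors are standard errors from the F statistic. Where a group had no tag, a floor of 3 tags over the group gave a lower bound, and where it had 1 to 3 a pooled ratio with an exact 95% interval, both covering counting error alone. The paper describes merging the peaks of the compared conditions, so a factor region could enter through a single condition. Few or no tags in the other condition are partly set by that choice, also for these bounds and ratios. Libraries of a group were never identical. The tables of RGFP966 and Pgc1b counted H3K27ac in 1000 bp windows on accessible regions of untreated macrophages.

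Superfamily regions, gene lists and quoted regions were chosen with earlier results of these data known. The regions named were the promoter or strongest region of 30 listed genes, the called region of lowest p in each direction, and further called regions chosen after their values were seen. Motifs and sequences were read from the mm10 genome with Python 3.11.15 (pandas 2.3.3, numpy 2.4.6, scipy 1.17.1). Alternatives were TMM scaling, DESeq2 1.42.0, no filter, a block on the replicate number, other distances for joining sites and leaving out each library.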

Additional observations from a re-analysis of the deposited data

Results flagged for a closer look

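In the Pgc1b table the H3K27ac response to KLA differed between Pgc1b flox/flox LysMCre and Pgc1b flox/flox cells at 15 superfamily regions (edgeR interaction, adjusted p under 0.05 over all regions, any size). Each interaction was negative, so the log2 change with KLA was lower in the LysMCre cells. That is a smaller rise where KLA raised the mark and a larger loss where KLA lowered it. At Tnfrsf1b, the gene of TNF receptor 2, the interaction on the log2 scale was -0.94 at +7.4 kb, -0.81 at -7.7 kb, -0.79 at -23.4 kb, -0.74 at -11.4 kb, -0.72 at -26.0 kb, -0.70 at -29.8 kb, -0.63 at -21.1 kb, -0.51 at +12.7 kb, -0.50 at +6.0 kb and -0.49 at +5.7 kb. It was -0.77 at Tnfrsf21 +16.1 kb, -0.62 at Tnfrsf14 -1.5 kb, -0.61 at Tnfrsf14 -1.2 kb, -0.64 at Tnfsf12 +3.7 kb and -0.34 at the Tnfsf12 promoter. Tnfrsf1b +5.7 and +6.0 kb, and Tnfrsf14 -1.5 and -1.2 kb, lie closer together than the 1000 bp counting window. The values within each pair are therefore not independent. With TMM the 15 values ran from -0.75 to -0.15, and 7 stayed past the threshold, and DESeq2 kept 4. Among all regions of that table the interaction was negative at 16.4% and positive at 2.1%.

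The H3K27ac response at Tnfrsf1b -10.9 kb was smaller in NKO than in WT cells, with an interaction of -0.88 ± 0.20 (SE, edgeR adjusted p = 0.017). TMM gave -0.53 at an adjusted p of 0.30, DESeq2 gave an adjusted p of 0.29, and 2 of the 8 fits that left out 1 library stayed past the threshold.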

How the results depend on the processing

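With TMM the called superfamily regions numbered 41 for Fosl2, 41 for PGC1β with KLA in DMSO cells, 2 for PGC1β with ERKi, 13 for NCoR with ERKi, 0 for ERK1 and 5 for p300 on day 4, 0 for Pgc1b LysMCre against flox/flox with Veh, 1 with KLA and 1 for the interaction. DESeq2 called 83 for p65, 46 for Fosl2, 40 for PGC1β in DMSO cells, 4 with ERKi, 18 for NCoR with ERKi, 0 for ERK1 and 0 for p300 on day 4, and 0 and 1 between the Pgc1b genotypes with Veh and with KLA. Without a filter 1 NKO interaction was called. Sites lower in at least 5 targets, an alternative added after seeing the data, numbered 7 with TMM and 8 with DESeq2.

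Leaving out 1 library at a time gave 47 to 100 calls for NCoR, 37 to 94 for HDAC3, 79 to 131 for p65, 0 to 52 for Fosl2, 28 to 37 for PU.1, 20 to 52 for PGC1β, 10 to 27 for ERK1 and 101 to 134 for p300. It gave 36 to 60 for PGC1β in DMSO cells, 0 to 2 with ERKi, 38 to 83 for NCoR with ERKi, and 0 to 7 (ERK1) and 6 to 40 (p300) on day 4. For H3K27ac it gave 7 to 13 in WT and 4 to 6 in NKO cells, 0 to 0 and 0 to 1 between these with Veh and KLA, 0 to 0 for their interaction, 21 to 25 in DMSO cells, 15 to 21 with RGFP966, 23 to 27 and 21 to 28 in Pgc1b flox/flox and LysMCre cells, 0 to 1 and 0 to 3 between them, and 0 to 2 for their interaction. A lone library was assumed to vary like the other groups.

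A block on the replicate number left 9 Fosl2 calls and moved no other count by 1.5 times. Same-numbered libraries did not deviate together (correlations from -0.027 to 0.026 over 31 pairs of groups), so the numbers were not taken as a pairing.

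Of 367 quoted called regions, TMM ended 75 calls and reversed 6, and DESeq2 ended 85 and reversed 4. The reversed values were -0.0089 at Tnfsf8 +45.4 kb and -0.12 (DESeq2 -0.089) at Tnfrsf14 -0.1 kb for p65, 0.0011 (DESeq2 0.014) at Fas -0.2 kb and 0.057 (DESeq2 0.069) at Tnfsf9 -0.1 kb for NCoR with ERKi, and -0.33 (DESeq2 -0.30) at Tnfsf18 +22.9 kb and -0.060 at Tnfsf12 +3.6 kb for p300 on day 4. The cause of these moves was not tested. Calls of p300, NCoR and HDAC3 with KLA were kept by TMM at 41 of 43, 38 of 38 and 38 of 39 quoted regions. For Fosl2, PGC1β and ERK1 these counts were 21 of 21, 23 of 23 and 13 of 14. Fewer were kept for p65 (33 of 44) and PU.1 (10 of 19). Depth limits regions with few Veh tags, whose folds are bounds or intervals.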
